A study of Mus musculus with 24 samples.

Results

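The unfolded protein and heat shock response was followed as a module of 40 genes. The members were chosen by symbol as endoplasmic reticulum (ER) stress sensors, ER chaperones and folding enzymes, ER-associated degradation genes, ATF4 targets, and cytosolic and mitochondrial chaperones. All 40 were found among the 17464 genes of the table, and all 40 passed the filter on low values, which kept 16630 genes. The libraries were bulk RNA-seq of 3 splenic regulatory T (Treg) cell subsets from 4 young and 4 old wild-type C57BL/6JRccHsd mice that had received no treatment named in the labels, which gave 24 libraries in 6 groups of 4. Resting Treg (rTreg) cells had been sorted as CD44-, activated Treg (aTreg) cells as CD44+ and KLRG1+ Treg (kTreg) cells by KLRG1. Young mice were 2 months old and old mice 26 months old. The labels number the samples of each subset and age from 1 to 4, and equal numbers within an age were read as the same mouse. Libraries are given in that order, and every count of mice below rests on this reading.

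Proteins that enter the ER are folded by chaperones such as BiP, the product of Hspa5, and misfolded ones are sent back to the cytosol for degradation. When unfolded proteins build up, the sensors ATF6, IRE1 (Ern1) and PERK (Eif2ak3) are activated. IRE1 splices the Xbp1 transcript, PERK favours the translation of ATF4, and the resulting factors induce chaperone and degradation genes. The heat shock response is its cytosolic counterpart, in which HSF1 induces Hsp70 genes and their partners. Sensor activity is mostly set by splicing, cleavage and phosphorylation, which values per gene do not record. In T cells both responses are known to be engaged after activation.

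Each library held between 15045747 and 29521942 reads on listed genes. The sort marker Klrg1 followed the labels, with values between 16559 and 41561 in kTreg cells and at most 358 elsewhere. The 3 libraries of young mouse 2 stood apart by B cell genes, whose 10 listed markers summed to between 9303 and 19614 there and to between 623 and 2064.5 in the other 21 libraries. Library 4 of young kTreg cells had 4913 genes at 0 against 419 to 2756 elsewhere, and library 2 of old aTreg cells had the lowest Foxp3 value, 5079.5. Every old aTreg library lay below every young one for Foxp3 (at most 19813.2 against at least 20350.6), Ctla4 (8745.1 against 10430.7) and Il2ra (4558.2 against 7549.1). Between these groups Ikzf2 and Cd4 overlapped, and Cd3e was higher in the old without overlap. The part of these genes in the aTreg differences between ages was not tested. In old rTreg cells the summed levels of 7 plasma cell genes (69564 to 117804, against 26339 to 44811 in young rTreg cells), 9 myeloid genes (11141 to 36863, against 896 to 10958) and 16 proliferation genes (44118 to 53447, against 15878 to 36205) did not overlap with young rTreg cells, although Fcer2a and Siglech were at 0 in all 4 old rTreg libraries. Of the plasma cell genes, Ighm was high in every library, between 21777.5 and 79258.6. Mzb1 overlapped between young (0 to 185) and old rTreg cells (11.45 to 65.91), while Jchain, Sdc1 and Igkc did not overlap. Sums of 11 immediate early genes, which tissue handling is known to induce, were lowest in mouse 2 in each young group and highest in mouse 2 in each old group. Their part in the results below was not tested.

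Promoter sequences are shown because the members are known targets of a few shared promoter elements. RefSeq promoters (GRCm38.p6, 250 bases before to 50 after the start) were given for 32 of the 40 members. These coordinates are on another build than the GRCm39 positions given with the values. The ER stress element, searched on both strands as CCAAT, 9 bases of any kind and CCACG, was present in 8 of the 32 promoters (Hspa5, Calr, Hsp90b1, Canx, Pdia6, Dnajc3, Creld2 and Syvn1) and in 0.119% of the 32851 promoters of the table. The 120 bases before the start of Hspa5 and Dnajc3 follow, with CCAAT and CCACG in capitals, on the plus strand of chr2:34771970-34772089 and chr14:118937812-118937931:
Hspa5: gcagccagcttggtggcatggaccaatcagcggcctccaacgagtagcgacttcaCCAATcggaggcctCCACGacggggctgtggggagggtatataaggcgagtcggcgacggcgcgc
Dnajc3: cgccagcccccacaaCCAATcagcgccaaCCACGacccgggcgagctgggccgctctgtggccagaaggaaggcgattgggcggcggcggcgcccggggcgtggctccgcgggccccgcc
The spaced pair of letters lay at positions −65 to −47 of Hspa5 and −105 to −87 of Dnajc3. Its short part CCACG alone was in 24 of the 32 promoters and in 32.8% of all promoters, and CCAAT alone was in 26 and in 37.4%. The UPR element TGACGTGG was in 0 of the 32 and in 0.676% of all.

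The amino acid response element, searched as TGATGNAAN, was present in Trib3, Asns and Herpud1 and in 3.95% of all promoters. In Asns, whose promoter window (chr6:7693210-7693329, minus strand) follows, the capitals mark it at positions −23 to −15:
Asns: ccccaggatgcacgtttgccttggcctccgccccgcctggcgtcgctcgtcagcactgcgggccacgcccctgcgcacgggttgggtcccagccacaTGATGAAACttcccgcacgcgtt
A heat shock element of 3 alternating GAA and TTC units spaced by 2 bases was present in Hspd1, Hspe1 and Hsph1 and in 0.603% of all promoters. The pair GAANNTTC, which is part of that element, was in 7 of the 32 and in 7.86% of all, and TTCNNGAA was in 4 and in 8.52%. The 160 bases before the start of Hspe1 (chr1:55087988-55088147, plus strand), Hspa1a (chr17:34972157-34972316, minus strand) and Hspa1b (chr17:34959239-34959398, minus strand) follow, with the alternating units of Hspe1 and the GAANNTTC pair of Hspa1a and Hspa1b in capitals:
Hspe1: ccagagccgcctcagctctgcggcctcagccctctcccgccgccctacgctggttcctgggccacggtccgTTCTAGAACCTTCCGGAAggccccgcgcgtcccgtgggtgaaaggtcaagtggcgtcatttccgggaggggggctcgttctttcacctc
Hspa1a: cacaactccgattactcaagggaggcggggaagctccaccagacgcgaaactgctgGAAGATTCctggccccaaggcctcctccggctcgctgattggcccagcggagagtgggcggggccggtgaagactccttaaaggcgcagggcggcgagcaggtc
Hspa1b: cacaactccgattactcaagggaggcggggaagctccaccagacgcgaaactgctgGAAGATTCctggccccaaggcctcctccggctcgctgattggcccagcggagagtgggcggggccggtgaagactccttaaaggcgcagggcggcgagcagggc
The windows of Hspa1a and Hspa1b had 159 of 160 bases in common, and the pair lay at −104 to −97 in both. Hspd1 and Hspe1 are read in opposite directions from a shared stretch, and the heat shock letters found for one lay on the same bases as those of the other (chr1:55088059-55088076). These matches describe letters and do not show binding.

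Most of the module was strongly expressed. By level per kilobase of exonic length, Hsp90ab1, Hspa8, Pdia3, Hspa5 and Calr were the highest members, at or above percentile 98.7 of all genes, whereas Ern1, Asns, Trib3 and Atf6 were the lowest. Of the 40 members, 8 were called in at least 1 of 9 comparisons, at a Benjamini-Hochberg adjusted p (limma) below 0.05 and a fold above 1.5: Atf6, Ern1, Dnajc3, Trib3, Asns, Hspa1a, Hspa1b and Hspe1. Of all genes tested 23.7% were called in at least 1 of the 9 comparisons, so the count for the members stood near the background. In bulk libraries, fewer cells of a type and less RNA per cell cannot be told apart, which holds for every difference below. Comparisons of the subsets average young and old mice with equal weight, and those that name the same subset share its libraries.

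In aTreg against rTreg cells, 2 of 40 members were called higher (Atf6 and Ern1), where 5.23% of all genes tested were called higher, and 0 were called lower (background 2.78%; also 0 at an unadjusted p below 0.05 and by edgeR and DESeq2). In kTreg against rTreg cells, 4 were called higher (Atf6, Ern1, Hspa1a and Hspa1b; background 9.37%) and 2 lower (Trib3 and Hspe1; background 6.09%). In kTreg against aTreg cells, 0 were called higher (background 4.13%; also 0 at an unadjusted p and by both other tools) and 3 lower (Dnajc3, Hspe1 and Trib3; background 3.26%). The median log2 fold change of the members was 0.11, 0.09 and −0.10 in these comparisons, beside 0.06, −0.01 and −0.08 over all genes tested. In aTreg against rTreg cells, 38 of 40 members lay above 0, beside 9547 of 16630 genes. Markers of other cells and of cycling moved in the same libraries. In aTreg against rTreg cells 11 of 16 proliferation genes, 3 of 7 plasma cell genes and 2 of 9 myeloid genes were called lower. In kTreg against aTreg cells 11 of the 16 proliferation genes and 1 of the 9 myeloid genes were called higher, and in kTreg against rTreg cells 0 of the 16 were called (also 0 by edgeR, DESeq2 and at an unadjusted p) and 1 of the 7 plasma cell genes was lower. Their part in the subset differences was not tested.

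**Figure D1:**
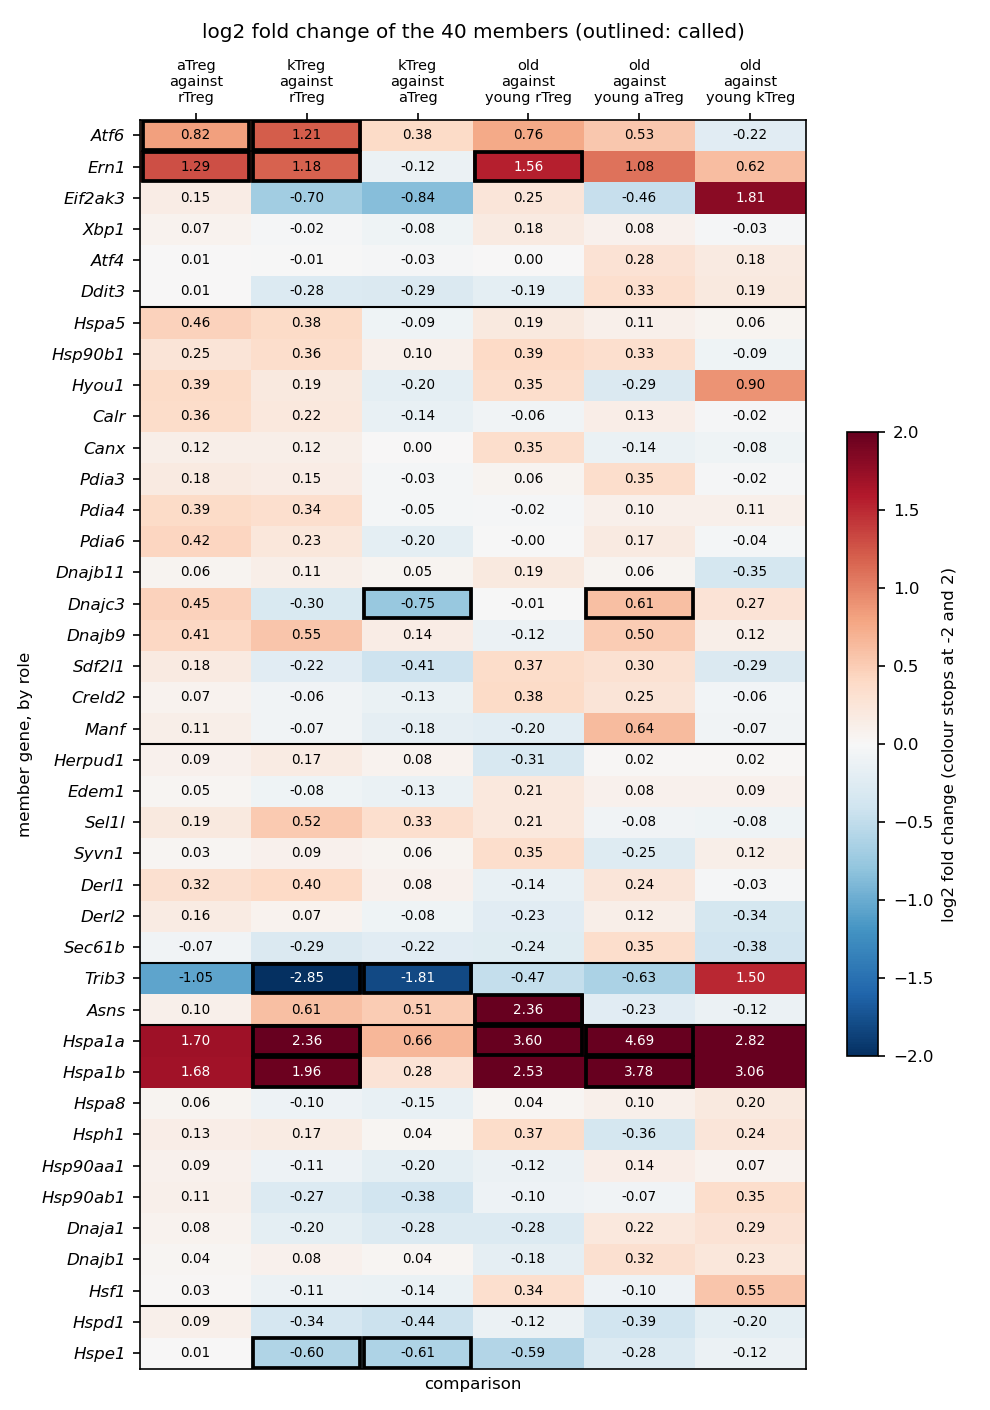
log2 fold change of each of the 40 members (rows, by role) in the 3 comparisons of subsets and the 3 comparisons of ages (columns), with colour stopping at −2 and 2 and outlined cells called. Most cells are pale, and those past the colour limits are Hspa1a and Hspa1b in the 3 comparisons of ages, Asns in old against young rTreg cells, and Trib3 and Hspa1a in kTreg against rTreg cells.

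Between ages, 3 members were called higher in old rTreg cells (Ern1, Asns and Hspa1a; background 4.12%) and 0 lower (background 1.71%; 1 at an unadjusted p, 0 by edgeR and DESeq2). In old aTreg cells, 3 were called higher (Dnajc3, Hspa1a and Hspa1b; background 1.85%) and 0 lower (background 0.860%; also 0 at an unadjusted p and by both other tools). In kTreg cells, limma called 0 members between ages in either direction (background 1.02% higher and 0.235% lower), although 3 were higher at an unadjusted p below 0.05 and the same fold, and DESeq2 called 2 higher, Hspa1a and Hspa1b, and edgeR 0. The members' median log2 fold change between ages was 0.05 in rTreg, 0.12 in aTreg and 0.06 in kTreg cells, beside −0.08, 0.01 and 0.12 over all genes.

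Among the sensors and their transcription factors, Atf6 and Ern1 were higher in aTreg and kTreg than in rTreg cells, while Xbp1, Atf4 and Ddit3 passed no test. Atf6 (ENSMUSG00000026663; GRCm39 chr1:170532026-170696208, minus strand) encodes the sensor that is cut in the Golgi to release a transcription factor. In young mice its normalized values were 249, 312, 179 and 194 in rTreg, 394, 421, 454 and 482 in aTreg and 841, 757, 755 and 629.9 in kTreg cells. In old mice they were 507, 653.5, 264 and 256 in rTreg, 571, 704.5, 615 and 647 in aTreg and 867, 768, 495 and 494 in kTreg cells. The 3 young groups did not overlap and stood in that order, whereas in old mice the groups overlapped. Its log2 fold change was 0.82 ± 0.18 (SE, adjusted p = 0.00475) in aTreg and 1.21 ± 0.18 (SE, adjusted p = 4.31e-05) in kTreg against rTreg cells, and each was higher in 8 of 8 mice. Between kTreg and aTreg cells it was 0.38 ± 0.18 (SE, adjusted p = 0.198), and old against young rTreg cells gave 0.76 ± 0.26 (SE, adjusted p = 0.0808). Both calls held under all 40 alternatives.

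Ern1 (ENSMUSG00000020715; chr11:106283818-106378686, minus strand), which encodes IRE1, the nuclease that splices Xbp1, was the lowest member per length. In young mice its values were 57.5, 32.1, 34.3 and 45.2 in rTreg, 82.4, 210.5, 97.3 and 126.5 in aTreg and 139.9, 186.5, 136 and 83.3 in kTreg cells. In old mice they were 44.1, 324, 106 and 152 in rTreg, 259, 262, 278 and 233 in aTreg and 145, 382, 198 and 152 in kTreg cells. Young rTreg libraries were the lowest group and overlapped with no other group but that of old rTreg cells, which spanned the widest range. The log2 fold change was 1.29 ± 0.32 (SE, adjusted p = 0.0104) in aTreg against rTreg cells (higher in 7 of 8 mice) and 1.18 ± 0.32 (SE, adjusted p = 0.0101) in kTreg against rTreg cells (8 of 8). Without young mouse 2, whose libraries held B cell genes, the aTreg difference was 1.10 (adjusted p = 0.0545). Old against young rTreg cells gave 1.56 ± 0.46 (SE, adjusted p = 0.041). That call was lost without any 1 of 12 libraries (each young rTreg library, young aTreg 3 and 4, old rTreg 2 and 4, old aTreg 1, 3 and 4, and old kTreg 3), with adjusted p between 0.0503 and 0.135, and without old rTreg library 2 the difference was 1.10. With only the groups compared in the fit its adjusted p was 0.200. Of the plasma cell genes 3 of 7 and of the proliferation genes 13 of 16 were called higher in the same old rTreg libraries, and their part was not tested.

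Xbp1 (ENSMUSG00000020484; chr11:5470606-5483027, plus strand), the transcription factor spliced by IRE1, lay between 4013 and 6177 in all 24 libraries. Young mice had 4299.5, 4455, 4456 and 4724.5 in rTreg, 4506, 4591.5, 5033 and 5334 in aTreg and 4013, 4453, 4645.5 and 6177 in kTreg cells. Old mice had 5659, 4430.0, 4868 and 5409 in rTreg, 5209.7, 5023, 5289 and 5001 in aTreg and 4869, 4715, 4585 and 4513 in kTreg cells. All 6 groups overlapped with at least 1 other, although every old aTreg library lay above every old kTreg and every young rTreg library. No difference passed the test, with log2 fold changes of 0.07 in aTreg and −0.02 in kTreg against rTreg cells and of 0.18, 0.08 and −0.03 between ages in rTreg, aTreg and kTreg cells. Spliced and unspliced Xbp1 were not told apart by values per gene, and 22.02% of its exonic bases are also exonic for Ccdc117 on the other strand. Atf4, the translationally controlled factor below PERK, lay between 2247 and 4437, and its log2 fold changes ran from −0.03 (kTreg against aTreg) to 0.28 (old against young aTreg cells), with none called. Ddit3, the factor CHOP induced by ATF4, lay between 485 and 941 with −0.28 in kTreg against rTreg and 0.33 in old against young aTreg cells, neither called, and 64.1% of its exonic bases are shared with Mars1 on the other strand.

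Eif2ak3, which encodes PERK, was near 0 in a single library. Its values in young kTreg cells were 578, 666.5, 524 and 1.83, against 330 to 890 in the other 20 libraries. The low value came from young kTreg library 4, the library with the most genes at 0. The log2 fold change was −0.84 ± 0.74 (SE, adjusted p = 0.511) in kTreg against aTreg cells and 1.81 ± 1.04 (SE, adjusted p = 0.394) in old against young kTreg cells, and neither passed the test. Hyou1, an ER cochaperone of the Hsp70 family, was lowest in the same library, at 190 against 553 to 753 in the other 3 young kTreg libraries.

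**Figure D2:**
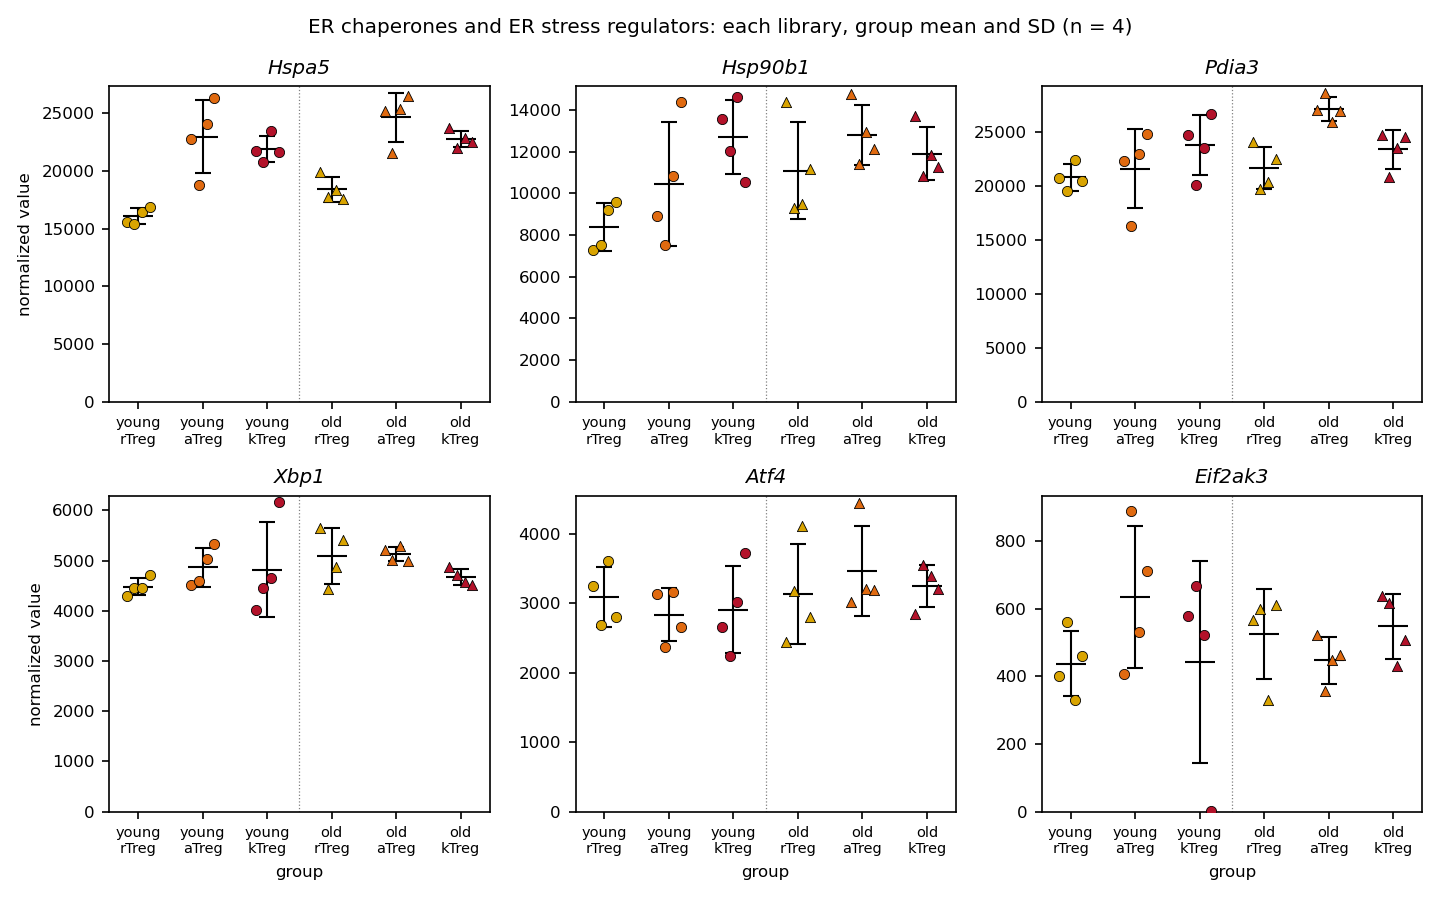
Normalized values (y axis, from 0) of Hspa5, Hsp90b1, Pdia3, Xbp1, Atf4 and Eif2ak3 in each library by group, with the group mean and SD (n = 4). Hspa5 is lowest in rTreg cells of both ages, Xbp1 and Atf4 stay level, and Eif2ak3 has a single young kTreg library at 1.83.

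The ER chaperones and folding enzymes differed little between subsets. All 14 lay above 0 in aTreg against rTreg cells, with log2 fold changes from 0.06 to 0.46 and a median of 0.31, and 0 of 14 passed the 1.5-fold threshold by limma, at an unadjusted p, or by edgeR or DESeq2. Hspa5 (ENSMUSG00000026864; chr2:34661982-34668880, plus strand), the central ER Hsp70 and the gene with the ER stress element shown above, had 15570.5, 15447, 16421 and 16881 in young rTreg, 22741, 18790.2, 24042 and 26343 in young aTreg and 21758, 20812, 23428 and 21666 in young kTreg cells. In old mice it had 19942, 17787.5, 18332 and 17568 in rTreg, 25243, 21562, 25334 and 26489 in aTreg and 23692, 21989.9, 22845 and 22498 in kTreg cells. At each age, every kTreg and aTreg library lay above every rTreg library. The log2 fold change was 0.46 ± 0.06 (SE, adjusted p = 3.09e-05) in aTreg and 0.38 ± 0.06 (SE, adjusted p = 9.48e-05) in kTreg against rTreg cells, each higher in 8 of 8 mice, and −0.09 ± 0.06 (SE, adjusted p = 0.42) between kTreg and aTreg cells. Between ages it was 0.19 in rTreg, 0.11 in aTreg and 0.06 in kTreg cells (adjusted p between 0.193 and 0.765). In the GENCODE annotation, 44.2% of its exonic bases are also exonic for Rabepk on the other strand, and the strand setting of the counting was not given in the sources used here.

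The adjusted p alone was also below 0.05 for Calr, the lectin chaperone calreticulin (0.36 in aTreg and 0.22 in kTreg against rTreg cells), and for Pdia6, a disulfide isomerase, in aTreg cells (0.42). In kTreg against rTreg cells it was below 0.05 for Hsp90b1, the ER Hsp90 (0.36), and for Dnajb9, a J-domain cochaperone of BiP (0.55). The log2 fold changes of Pdia3, Pdia4, Canx, Dnajb11, Sdf2l1, Creld2, Manf and Hyou1 between subsets lay between −0.41 and 0.39, and none passed at either threshold. Manf, a secreted ER protein with a trophic action, gave 0.64 ± 0.18 (SE, adjusted p = 0.0636) in old against young aTreg cells and was called there by DESeq2. A neighbouring gene on the same strand, Rbm15b, shares 32.6% of its exonic bases.

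Dnajc3 departed from the other ER chaperones. It encodes a J-domain cochaperone of BiP also known as an inhibitor of the kinase PKR, and lies at chr14:119175317-119219115 on the plus strand (ENSMUSG00000022136). In young mice its values were 3203, 3246, 3413 and 3843 in rTreg, 3519, 3616, 4032 and 3964 in aTreg and 2607.5, 2497, 2485 and 2475 in kTreg cells. In old mice they were 3333.5, 3349.8, 3271 and 3587 in rTreg, 5572, 6765, 5671 and 5121 in aTreg and 3443, 2828.5, 2670.4 and 3289.8 in kTreg cells. Every kTreg library was below every aTreg library, and every old aTreg library was above every library of the other 5 groups. Dnajc3 fell in kTreg against aTreg cells, with a log2 fold change of −0.75 ± 0.07 (SE, adjusted p = 2.86e-07), lower in 8 of 8 mice, and this call held under all 40 alternatives. Against rTreg cells it was 0.45 ± 0.07 (SE, adjusted p = 1.06e-04) in aTreg and −0.30 ± 0.07 (SE, adjusted p = 0.00269) in kTreg cells, both short of 1.5-fold.

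Dnajc3 also rose with age in aTreg cells, by a log2 fold change of 0.61 ± 0.10 (SE, adjusted p = 8.51e-04), beside −0.01 ± 0.10 (SE, adjusted p = 0.957) in rTreg and 0.27 ± 0.10 (SE, adjusted p = 0.179) in kTreg cells. The age effect differed between aTreg and rTreg cells, by 0.62 ± 0.14 (SE, adjusted p = 0.0246), while that between kTreg and aTreg cells gave −0.33 ± 0.14 (SE, adjusted p = 0.446). In these interaction tests, 1 of 40 members was called higher and 1 lower for aTreg against rTreg cells (background 0.511% and 1.05%). For kTreg against aTreg cells, 0 were called in either direction by limma, edgeR and DESeq2 (background 0.0421% higher and 0.114% lower), with 2 higher and 1 lower at an unadjusted p. Without old aTreg library 2 the difference between ages was 0.53 (adjusted p = 0.00372) and without young aTreg library 1 it was 0.57 (adjusted p = 0.00348), both just under 1.5-fold. It also fell below 1.5-fold with equal library totals, at 0.52 (adjusted p = 0.00177), and without the 3 libraries of old mouse 2, at 0.53 (adjusted p = 0.00567). The interaction lost its call without old aTreg 2, young aTreg 2, young rTreg 3 or young rTreg 4, with adjusted p between 0.0538 and 0.0600, and with equal library totals it was 0.54 (adjusted p = 0.0378).

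The 7 ER-associated degradation and translocon genes gave 0 calls in the 9 comparisons by limma, also 0 at an unadjusted p and by edgeR and DESeq2. The background was at most 9.37% in any comparison and direction, so 0 of 7 lies near it. Sel1l, the scaffold of the Syvn1 ubiquitin ligase, was higher in kTreg cells at the adjusted p alone, with 0.52 ± 0.10 (SE, adjusted p = 5.27e-04) against rTreg and 0.33 ± 0.10 (SE, adjusted p = 0.0327) against aTreg cells. Derl1, a channel component, gave 0.32 ± 0.05 (SE, adjusted p = 2.97e-04) in aTreg and 0.40 ± 0.05 (SE, adjusted p = 6.67e-06) in kTreg against rTreg cells. Syvn1, Edem1, Herpud1, Derl2 and Sec61b, the last a subunit of the translocon, lay between −0.29 and 0.17 between subsets and between −0.38 and 0.35 between ages, with none past either threshold.

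The pair of ATF4 targets did not move together. Trib3 (ENSMUSG00000032715; chr2:152179337-152191958, minus strand), a pseudokinase that restrains ATF4 and CHOP, fell in kTreg cells. In young mice its values were 188, 98.6, 178 and 202 in rTreg, 76.9, 89.5, 61.9 and 105 in aTreg and 27.5, 27.7, 18.9 and 0 in kTreg cells. In old mice they were 207, 36.4, 209.5 and 112 in rTreg, 68.1, 70.2, 54.3 and 28.6 in aTreg and 89.1, 18.9, 13.3 and 39.4 in kTreg cells. In young mice the kTreg libraries were all below those of the other subsets, and in old mice the groups overlapped. The log2 fold change was −2.85 ± 0.58 (SE, adjusted p = 9.23e-04) in kTreg against rTreg cells, lower in 8 of 8 mice and called under all 40 alternatives, and −1.81 ± 0.58 (SE, adjusted p = 0.0452) against aTreg cells, lower in 6 of 8. The latter was lost without any 1 of 14 libraries (young rTreg 1, 3 and 4, each young aTreg library, old rTreg 4, old aTreg 1, 2 and 3, and old kTreg 2, 3 and 4), with adjusted p between 0.05005 and 0.0996. Without young kTreg library 4, where Trib3 was at 0, and old aTreg library 2 it was −1.15 (adjusted p = 0.0709), and edgeR on recovered reads gave −1.32 (adjusted p = 0.109). The call was also lost with a pseudocount of 0.5 (adjusted p = 0.0585), with only the groups compared in the fit (adjusted p = 0.0729) and without the 3 libraries of old mouse 2 (adjusted p = 0.137).

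Asns (ENSMUSG00000029752; chr6:7671667-7728461, minus strand), which encodes asparagine synthetase, rose with age in rTreg cells. In young mice its values were 83.2, 91.9, 48.8 and 36.1 in rTreg, 204, 135, 162 and 152 in aTreg and 199, 289.7, 195 and 212 in kTreg cells. In old mice they were 345.5, 199.8, 221 and 655.5 in rTreg, 197, 58.9, 158 and 194 in aTreg and 201, 179, 179.9 and 264 in kTreg cells. Every old rTreg library lay above every young rTreg library, while the other subsets overlapped between ages. Every young aTreg and young kTreg library also lay above every young rTreg library. The log2 fold change between ages was 2.36 ± 0.39 (SE, adjusted p = 5.99e-04) in rTreg, −0.23 ± 0.39 (SE, adjusted p = 0.938) in aTreg and −0.12 ± 0.39 (SE, adjusted p = 0.898) in kTreg cells. The difference of these age effects was −2.59 ± 0.56 (SE, adjusted p = 0.0217) for aTreg and −2.48 ± 0.56 (SE, adjusted p = 0.0147) for kTreg against rTreg cells. Asns was the only member called in the latter test (1 of 40 lower, background 2.03%; 0 higher, background 0.998%, and 0 at an unadjusted p). Without young rTreg library 3 the former was −2.49 (adjusted p = 0.0590). Of the 16 proliferation genes 13, and of the 7 plasma cell genes 3, were called higher in old rTreg cells. Cycling genes, plasma cell genes and Asns thus moved in the same libraries. The part of the cycling and plasma cell genes was not tested.

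**Figure D3:**
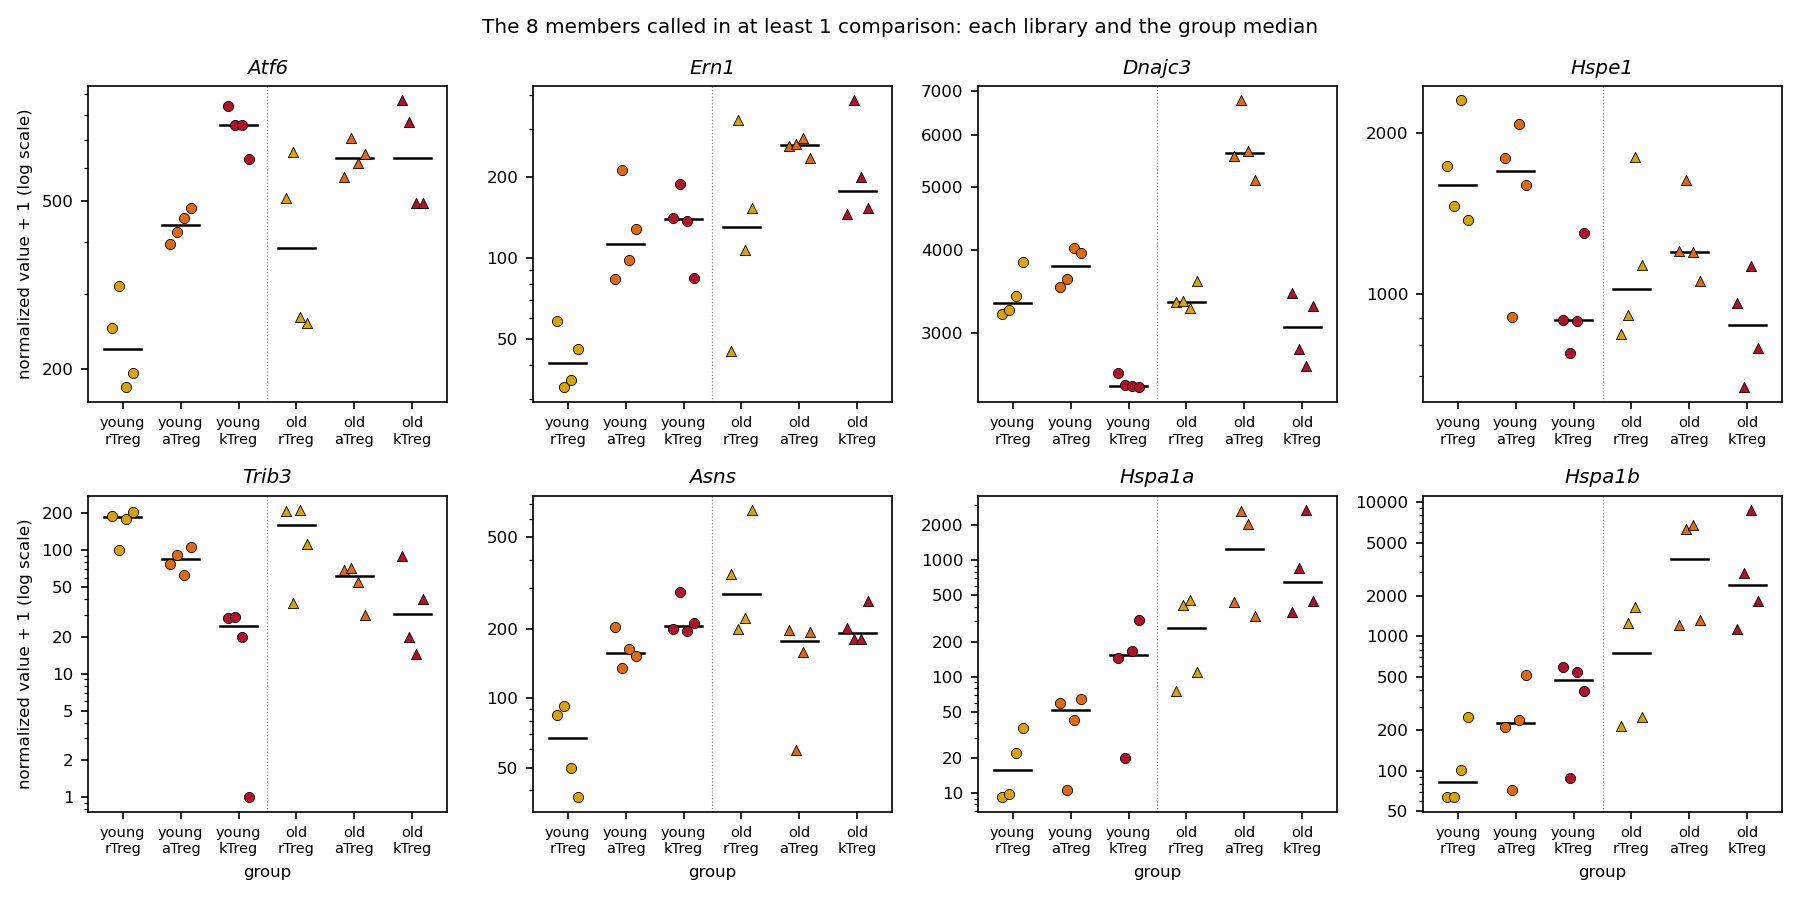
Normalized values plus 1 (y axes, log scale) of the 8 members called in at least 1 comparison, in each library by group, with the group median as a line. Dnajc3 is highest in old aTreg cells, Trib3 is lowest in kTreg cells, Asns differs between ages in rTreg cells, and the old libraries of Hspa1a and Hspa1b lie mostly above the young ones.

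The cytosolic Hsp70 genes Hspa1a and Hspa1b had the largest differences between ages of all members. Hspa1a (ENSMUSG00000091971; chr17:35188166-35191132, minus strand) and Hspa1b (ENSMUSG00000090877; chr17:35175412-35178214, minus strand) are neighbouring, stress-inducible genes for nearly the same protein. Of the 150-base stretches of Hspa1a transcripts, 38.1% also occur in Hspa1b, so the split of reads between the pair is uncertain. In young mice Hspa1a was at 8.22, 8.86, 21.1 and 35.1 in rTreg, 59.0, 9.68, 41.8 and 64.1 in aTreg and 144, 19.1, 164.5 and 309 in kTreg cells. In old mice it was at 75.1, 411, 457 and 108 in rTreg, 439, 2654, 2046 and 334 in aTreg and 359, 852, 2699 and 450.3 in kTreg cells. Within each subset, every old library lay above every young one. The log2 fold change between ages was 3.60 ± 0.89 (SE, adjusted p = 0.0157) in rTreg, 4.69 ± 0.89 (SE, adjusted p = 0.00331) in aTreg and 2.82 ± 0.89 (SE, adjusted p = 0.125) in kTreg cells, the last not called. The difference of the age effect between subsets did not pass (adjusted p between 0.636 and 0.777).

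Like Hspa1a, Hspa1b was highest in old mice 2 and 3 in each subset. Its young values were 62.7, 63.1, 100.2 and 249.9 in rTreg, 212, 71.0, 240.3 and 518 in aTreg and 588, 87.0, 547 and 393 in kTreg cells. Its old values were 216, 1265, 1651 and 251 in rTreg, 1211, 6253, 6778 and 1326 in aTreg and 1142, 2978, 8694 and 1831 in kTreg cells. The ages did not overlap in aTreg and kTreg cells and overlapped in rTreg cells. Between ages the log2 fold change was 2.53 ± 0.82 (SE, adjusted p = 0.0653) in rTreg, 3.78 ± 0.82 (SE, adjusted p = 0.0109) in aTreg and 3.06 ± 0.82 (SE, adjusted p = 0.0669) in kTreg cells, with only the aTreg difference called. Without young aTreg library 2 it was 3.27 (adjusted p = 0.0550) and without old aTreg library 2 it was 3.41 (adjusted p = 0.0568). Without young rTreg library 1 the rTreg difference of Hspa1a was 3.32 (adjusted p = 0.0541). Without the 3 libraries of old mouse 2 it was 3.25 (adjusted p = 0.0545).

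Both genes were also higher in kTreg than in rTreg cells, by 2.36 ± 0.63 (SE, adjusted p = 0.00836) for Hspa1a and 1.96 ± 0.58 (SE, adjusted p = 0.0173) for Hspa1b, in 8 of 8 mice and under all 40 alternatives. In aTreg against rTreg cells the values were 1.70 ± 0.63 (SE, adjusted p = 0.0953) and 1.68 ± 0.58 (SE, adjusted p = 0.0722), not called, and both genes were higher in 8 of 8 mice. Within an age the values differed widely between mice, and in young aTreg and kTreg cells both genes were lowest in mouse 2. The sums of the 11 immediate early genes were 30182 to 74712, 32161 to 85608 and 40185 to 99201 in young rTreg, aTreg and kTreg cells, and 57529 to 95971, 64729 to 117976 and 67215 to 176708 in the old. Between ages, 1 of the 11 was called higher in old rTreg (Ier3), 1 lower in old aTreg (Nr4a1) and 0 in old kTreg cells, whereas 10, 8 and 10 of them lay above 0. In kTreg against rTreg cells 1 was called higher (Dusp1). None of the 11 was at 0 in a whole group. Their part in the Hsp70 differences was not tested.

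**Figure D4:**
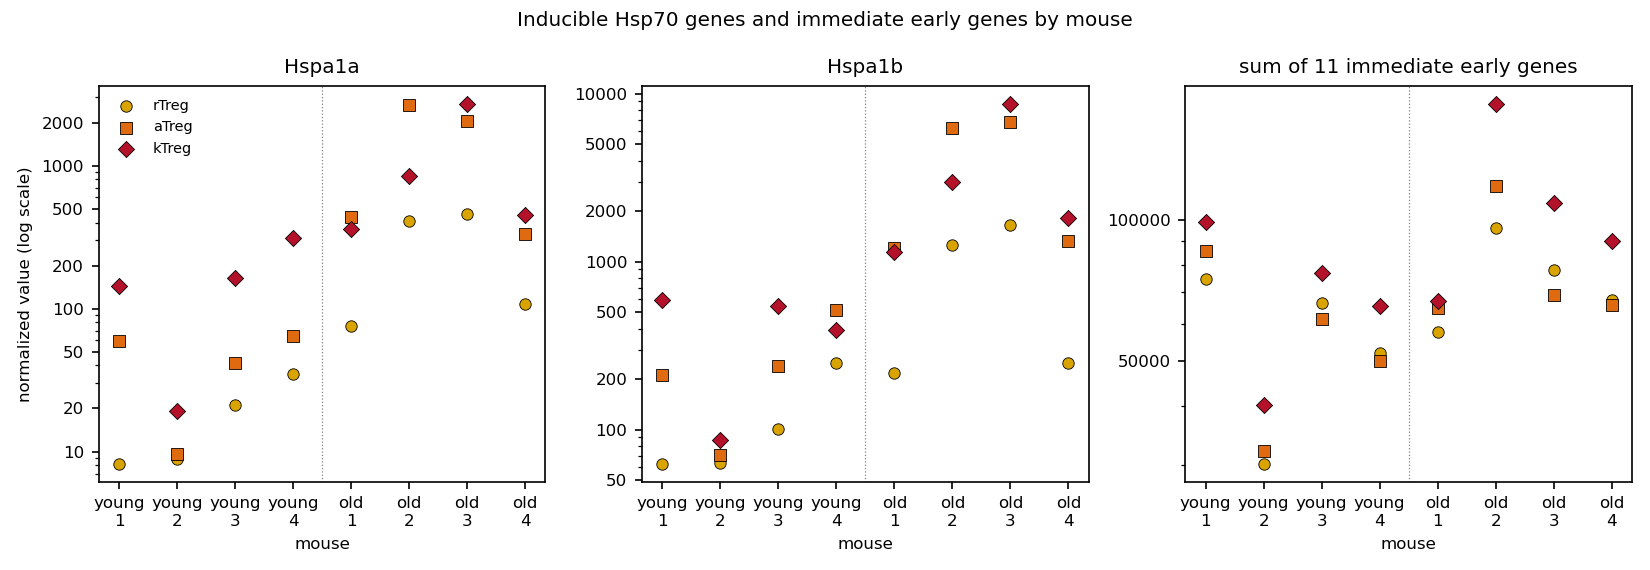
Normalized values (y axes, log scale) of Hspa1a, Hspa1b and the sum of 11 immediate early genes for each mouse (x axis), with a marker for each subset. Old mice 2 and 3 hold the highest Hsp70 values and young mouse 2 low ones, while the immediate early sum is lowest in young mouse 2 and highest in old mouse 2.

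Of the 9 cytosolic members, Hspa1a and Hspa1b were the ones called. Hspa8, the constitutive Hsp70, lay between 31784 and 62593 in all libraries, and its log2 fold changes between ages were 0.04, 0.10 and 0.20 in rTreg, aTreg and kTreg cells. Dnajb1, the J-domain partner of inducible Hsp70, gave −0.18, 0.32 and 0.23, although its highest value, 8250.2, lay in old kTreg library 3, as did those of Hspa1a and Hspa1b. Hsph1, an exchange factor for Hsp70, gave 0.37, −0.36 and 0.24, and Hsf1, the heat shock factor itself, 0.34, −0.10 and 0.55. None of these 12 differences was called by limma, edgeR or DESeq2 or at an unadjusted p with the same fold. Hsp90ab1, the constitutive Hsp90 and the highest member per length, was lower in kTreg than in aTreg cells at the adjusted p alone, with a log2 fold change of −0.38 ± 0.12 (SE, adjusted p = 0.0364). Hsp90aa1 and Dnaja1 gave −0.20 and −0.28 in that comparison and passed no test, and 77.9% of the exonic bases of Dnaja1 are shared with Smu1 on the other strand.

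The mitochondrial chaperonin genes were lower in kTreg cells. Hspe1 (ENSMUSG00000073676; chr1:55127260-55130476, plus strand) encodes the lid of the Hspd1 folding chamber. In young mice its values were 1739, 1460.0, 2307 and 1374 in rTreg, 1796, 901, 2084 and 1596 in aTreg and 892, 774, 886 and 1300.1 in kTreg cells. In old mice they were 837, 909.5, 1809 and 1132 in rTreg, 1200.2, 1636, 1197 and 1057 in aTreg and 958, 665, 1128 and 789 in kTreg cells. The kTreg values were the lowest of the 3 subsets in 7 of 8 mice. In young mice every kTreg library lay below every rTreg library but overlapped with aTreg cells, and in old mice the groups overlapped. Hspe1 gave −0.61 ± 0.19 (SE, adjusted p = 0.0339) against aTreg cells, lower in 8 of 8 mice, and −0.60 ± 0.19 (SE, adjusted p = 0.0228) against rTreg cells, lower in 7 of 8. Hspd1, with which it shares the promoter stretch printed above, gave −0.44 ± 0.09 (SE, adjusted p = 0.00184) and −0.34 ± 0.09 (SE, adjusted p = 0.00609), below the fold threshold. The pair overlaps on opposite strands over 143 exonic bases, 8.03% of those of Hspe1. The call against aTreg cells was lost without any 1 of 10 libraries (young aTreg 1, 3 and 4, young kTreg 1, 2 and 3, old aTreg 1 and 2, and old kTreg 2 and 4), with adjusted p between 0.0515 and 0.0835, and with libraries centred on their medians (adjusted p = 0.0691). Without the 3 libraries of old mouse 2 it was −0.48 (adjusted p = 0.168). The call against rTreg cells was lost without any 1 of 6 (young rTreg 3, young kTreg 2 and 3, old rTreg 3, and old kTreg 2 and 4), with values from −0.58 to −0.48 and adjusted p between 0.0399 and 0.0586, and without old mouse 2 or with equal library totals it fell short of the fold threshold, at −0.58 in both.

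Genes of the same pathways outside the module gave between 0 and 4 calls a list in each comparison and direction, to be read against the background shares given above for each. Of 28 other ER folding and glycosylation genes, 1 was called in each of 5 comparisons: Txndc5, a disulfide isomerase, in kTreg against aTreg cells (0.62 ± 0.10 SE, adjusted p = 1.51e-04) and in old rTreg cells (0.82 ± 0.14 SE, adjusted p = 5.43e-04), and Ero1a, the oxidase that recharges disulfide isomerases, in aTreg and in kTreg against rTreg cells (0.87 and 0.86) and in old aTreg cells (1.26 ± 0.18 SE, adjusted p = 2.76e-04). Of 20 other ER-associated degradation genes, Erlec1, a lectin, was the one called in the subset and age comparisons, in kTreg against rTreg cells (0.63 ± 0.18 SE, adjusted p = 0.0153). Of 20 translocon and signal peptide processing genes, limma and edgeR called 0 in them, and DESeq2 and an unadjusted p gave 1 lower in old rTreg cells, Srp54a. Of 28 other integrated stress response genes, Sesn2 and Eif2ak2 were higher in kTreg against aTreg cells (1.00 and 0.75), and Cebpb and Eif2ak2 were higher and Slc7a5, an amino acid transporter, lower in kTreg against rTreg cells (1.02, 0.66 and −0.78). In aTreg against rTreg cells, 2 of these 28 were lower, Slc7a5 and Phgdh (−0.70 and −0.61).

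Between ages, Psat1, a serine synthesis enzyme, was higher in old rTreg cells (0.65 ± 0.17 SE, adjusted p = 0.0242) and lower in old kTreg cells (−0.84 ± 0.17 SE, adjusted p = 0.0137), and the age effect differed between these subsets by −1.49 ± 0.24 (SE, adjusted p = 0.00159). For Psat1 it also differed between aTreg and rTreg cells, by −1.19 ± 0.24 (SE, adjusted p = 0.0169). Cebpb was also higher in old rTreg cells (1.01). In old aTreg cells 3 of the 28 were lower (background 0.860%), Phgdh (−0.82), Slc7a5 (−1.38 ± 0.20 SE, adjusted p = 3.20e-04) and Shmt2 (−0.61 ± 0.11 SE, adjusted p = 0.00257). The age effect also differed in aTreg against rTreg cells for Slc7a5 (−1.62 ± 0.28 SE, adjusted p = 0.00858) and Shmt2 (−0.83 ± 0.16 SE, adjusted p = 0.0121). Of the ER folding genes, it differed for Txndc5 in kTreg (−1.21 ± 0.19 SE, adjusted p = 0.00135) and in aTreg (−1.07 ± 0.19 SE, adjusted p = 0.0101) against rTreg cells. It also differed for Ero1a in kTreg against aTreg cells (−1.35 ± 0.25 SE, adjusted p = 0.0363).

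Of 31 other cytosolic chaperones and co-chaperones, 4 were called higher in kTreg against rTreg cells (background 9.37%), the comparison in which Hspa1a and Hspa1b were also called. They were Hspb1, a small heat shock protein (2.05 ± 0.40 SE, adjusted p = 5.80e-04), Bag3, a co-chaperone of Hsp70 (1.05 ± 0.23 SE, adjusted p = 0.00211), Fkbp5 (1.02 ± 0.18 SE, adjusted p = 1.79e-04) and Dnaja4 (0.87 ± 0.14 SE, adjusted p = 8.29e-05). In aTreg against rTreg cells 2 were called higher, Dnaja4 (0.68) and Bag3 (0.95). In kTreg against aTreg cells Fkbp5 was higher (0.66) and Hspbp1 lower (−0.69), and with age Fkbp5 was higher in rTreg cells (adjusted p = 0.00751). The 8 subunits of the cytosolic chaperonin TRiC all lay below 0 in kTreg against aTreg and against rTreg cells, with medians of −0.31 and −0.32 and 0 called, also 0 at an unadjusted p and by edgeR and DESeq2. The median of all genes tested was −0.08 against aTreg and −0.01 against rTreg cells. Of 12 other mitochondrial chaperones and proteases, Clpp, a matrix protease, was lower in kTreg against aTreg cells (−0.61 ± 0.10 SE, adjusted p = 3.09e-04) and Htra2 was higher in old kTreg cells (0.69 ± 0.17 SE, adjusted p = 0.0455).

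**Figure D5:**
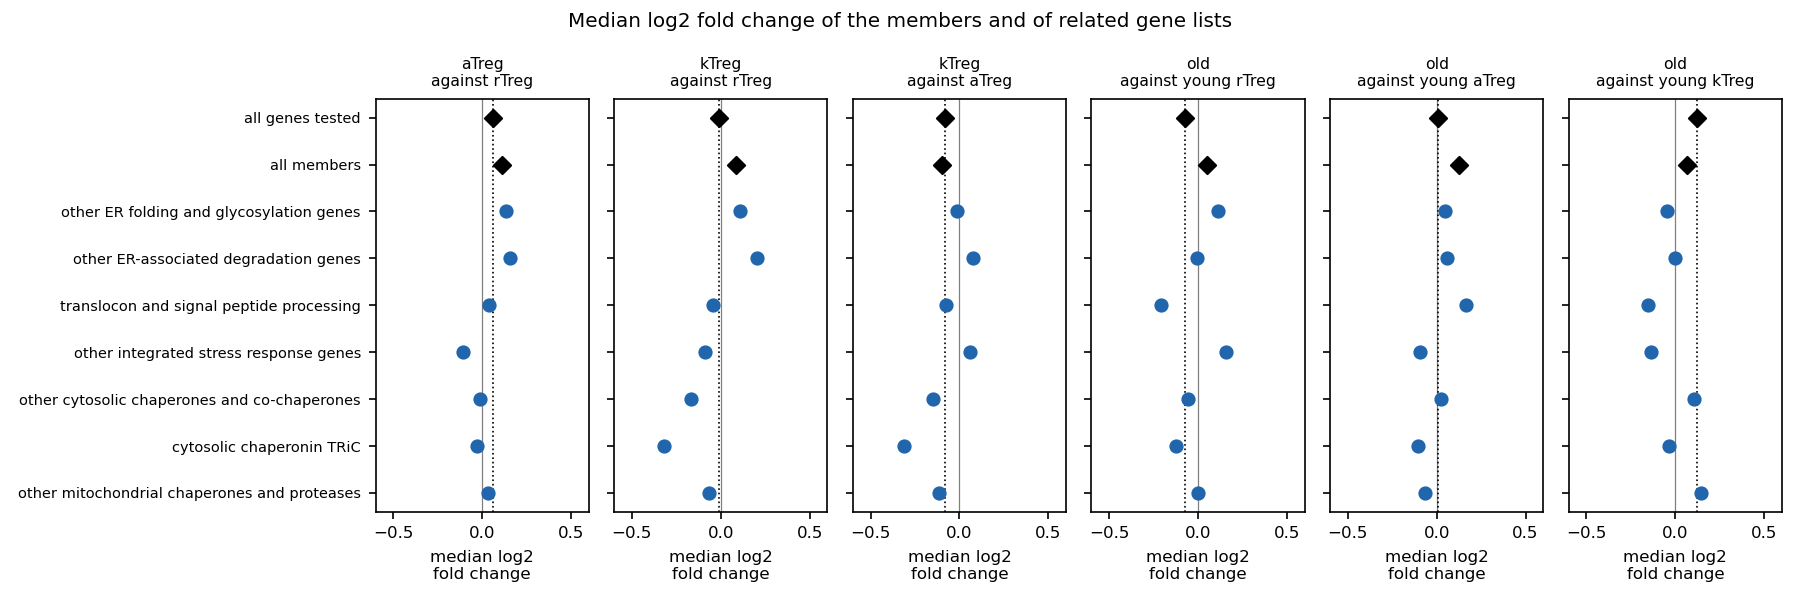
Median log2 fold change (x axes) of all genes tested and all members (diamonds) and of 7 related gene lists (circles) in the 6 comparisons, with the median of all genes as a dotted line. The lowest medians are those of the TRiC subunits in kTreg cells, −0.31 against aTreg and −0.32 against rTreg cells.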

How the data were processed

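rTreg, aTreg and kTreg cells of 4 young and 4 old mice were profiled by bulk RNA-seq, with SMART-Seq v4 cDNA and paired-end reads of 150 bases. Per the labels' processing notes, the authors used HISAT2 2.2.1, GRCm39, SAMtools 1.13, HTSeq 1.99.2 and DESeq2 1.44.0. The annotation release, the strand setting and the handling of multi-mapped reads were not given in the sources used here. The deposited values are a signal that the authors normalized, in which gene reads were scaled by 1 DESeq2 size factor for each library. The lowest sum of reads of a listed gene over the libraries was 100. All 24 value columns belonged to a labelled sample.

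Whole reads were recovered from the steps between low values, within 0.001 reads for 100% of values, and gave 15045747 to 29521942 reads on listed genes per library. Intervals from reads would cover counting error only, so errors are those between mice. Symbols, positions and exonic lengths came from GENCODE M39 on GRCm39, which named 17353 of 17464 identifiers.

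limma 3.58.1 (R 4.3.3) was fitted with its trend option to log2(value + 1) of genes that reached 10 in 4 or more libraries, with 6 groups of age and subset. Adding 1 shrinks changes of low genes, whereas a library at or near 0 can enlarge them. Trib3 in kTreg against aTreg cells gave −1.81, but −1.945 with a pseudocount of 0.5 and −1.32 by edgeR. Interaction terms tested whether an age effect differed between subsets. Members called in any comparison, Hspa5 and Xbp1 are given in every library. Of each other list, up to 2 called genes per direction were to be named by the smallest p, and in some comparisons more were named. The members and lists were chosen with earlier results of these data known. The fit was also run on simulated counts. These held no shared effect of a mouse, no cells of other types and no library with many genes at 0, so that run does not cover these features. edgeR 4.0.16 and DESeq2 1.42.0 on recovered reads, other scalings, filters and pseudocounts, and each library left out were tried as alternatives. Libraries of the same age and number were read as subsets of the same mouse, which the labels do not state. Deviations of same-mouse libraries correlated at a median of 0.115 (aTreg and kTreg), 0.153 (rTreg and aTreg) and 0.0911 (rTreg and kTreg), against −0.0507, −0.0331 and −0.0340 between mice, so mouse as a block was an alternative, with a consensus correlation of 0.0620. Promoters came from RefSeq on GRCm38.p6. Figures were drawn with matplotlib 3.10.9. Some sort and cell type markers are not reported here.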

Additional observations from a re-analysis of the deposited data

Results flagged for a closer look

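A library was far from the other 3 of its group for 10 members, in 12 of 240 groups of a member (5.0%). Chance gives about 1 in 20, which is 12. Of the 12, 4 were in old rTreg library 3 and 2 in old aTreg library 2. In old rTreg library 3, Eif2ak3 was at 329.6, Sel1l at 1395.2, Sdf2l1 at 2092.5 and Derl1 at 3726.4, with the first pair low and the second high. In old aTreg library 2, which had the lowest Foxp3 value of all, Atf4 was high at 4436.9 and Dnajb9 high at 451.4. In young kTreg cells, Pdia4 was low at 3508.3 in library 4, the library with the most genes at 0, and Dnajc3 was high at 2607.5 in library 1. Sdf2l1 was low at 741.7 in young rTreg library 4, and Hspd1 was low at 4234.6 in old aTreg library 4. In old kTreg cells, Herpud1 was low at 3454.7 in library 2 and Sel1l low at 2104.4 in library 4.

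The effect of age differed between subsets for Asns and Dnajc3 in the interaction test (limma). For Asns the age effect differed from that of rTreg cells by −2.48 on the log2 scale in kTreg (adjusted p = 0.0147) and by −2.59 in aTreg cells (adjusted p = 0.0217). For Dnajc3 it was 0.62 higher in aTreg than in rTreg cells (adjusted p = 0.0246).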

How the results depend on the processing

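The 20 member calls were recomputed under 40 alternatives, of which 3 (leaving out young mouse 2, old mouse 2, or young kTreg library 4 with old aTreg library 2) were chosen after seeing the data. Of 800 values, 726 stayed called, 74 did not and 0 turned sign, and 10 of 20 calls held throughout. With mouse as a replicate block 0 calls were lost, and aTreg against rTreg cells gave 3 members higher instead of 2. The counts below are of members called, and their cause was not tested where they moved. Equal library totals gave 1 lower in kTreg against rTreg cells and 0 higher in the interaction of aTreg against rTreg cells. DESeq2 gave 4 higher in aTreg against rTreg, 5 in old rTreg, 2 in old kTreg cells and 2 in that interaction. An unadjusted p gave 4 higher in aTreg against rTreg cells, 5 higher and 1 lower in old rTreg, 5 higher in old aTreg and 3 higher in old kTreg cells, and, in the interactions, 2 higher and 1 lower (kTreg against aTreg), 3 lower (kTreg against rTreg) and 2 higher (aTreg against rTreg). With no fold threshold, kTreg against aTreg cells gave 1 higher and 5 lower, kTreg against rTreg cells 10 higher and 4 lower, and aTreg against rTreg cells 7 higher. Without old mouse 2, the counts were 1 lower in kTreg against aTreg and against rTreg cells, 1 higher in old rTreg and in old aTreg cells and 0 higher in the interaction of aTreg against rTreg cells, which was also 0 under the other 2 added alternatives. With each library left out, the counts higher ranged from 2 to 4 (aTreg against rTreg), 4 to 5 (kTreg against rTreg), 1 to 4 (old rTreg and old aTreg), 0 to 1 (old kTreg) and 0 to 1 (aTreg interaction), and the counts lower from 1 to 2 (kTreg against rTreg), 1 to 3 (kTreg against aTreg), 0 to 1 (old rTreg) and 0 to 1 (aTreg interaction). Centring libraries on their medians moved the median of all genes in old against young rTreg cells from −0.08 to −0.20. Low read counts limit mainly Trib3, Ern1, Asns and Hspa1a, which had few reads in some libraries. Eif2ak3 was at 1.83 in young kTreg library 4, where Trib3 was at 0. That library had 21653939 reads on listed genes and 4913 genes at 0.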
